A study of Danio rerio with 8 samples.

Results

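The 10 genes described here are period genes and outputs of the circadian clock of zebrafish. They are per1a, per1b, per2 and per3, the transcription factor genes tefa, dbpb, nfil3, bhlhe40 and bhlhe41, and noctb. Their probe sets were taken by name, as those whose platform annotation gives exactly 1 symbol equal to one of these names. The 10 names were chosen with earlier results of these data known. All 10 were found on 11 probe sets and all 10 passed the filter on dim probe sets, among 19260 symbols measured and 13774 genes tested. Their levels were compared in 4 groups of 2 arrays, which were 142ab-/- myelomonocytes, wild-type myelomonocytes, 142ab-/- whole kidney marrow (WKMs) and wild-type WKMs. The 142ab-/- fish are double knockouts of the microRNA miR-142-3p, and the wild-type fish carry no deletion that the labels name. All fish were 60 days old, each sample pooled 4 kidneys, and the 2 samples of a group were independent repeats. The kidney is the organ in which adult zebrafish form blood. Myelomonocytes are cells of the granulocyte and monocyte lineages, and the WKMs are a mixture of marrow cells sorted without erythrocytes. The labels give no time of day for the dissections. Whether the groups differed in that time was not tested. For genes of the clock, such a difference could not be told apart from one of genotype or population.

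In the circadian clock, CLOCK and BMAL proteins switch on genes that carry E-box elements, among them the period and cryptochrome genes. Period and cryptochrome proteins then repress CLOCK and BMAL, which closes a daily loop, and in zebrafish the clocks of peripheral tissues respond to light directly. TEF and DBP are PAR bZIP activators that act on D-box elements, and NFIL3 is a repressor that binds the same elements. BHLHE40 and BHLHE41, also called DEC1 and DEC2, repress through E-boxes. Nocturnin, the product of the noct genes, is a rhythmically expressed enzyme that was earlier described as a deadenylase and is now known to act on NADP(H).

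Each level below is a log2 value of 1 probe set on 1 array, and each difference is on the log2 scale. Levels of different genes are not compared, because each probe set has its own response. A gene was called where limma gave an adjusted p under 0.05 (two-sided, Benjamini-Hochberg over the 13774 genes, 1 fit over all 8 arrays). A value after ± is the standard error from limma for a difference and the SD over 2 arrays for a level, and intervals are 95% intervals from limma. The number of arrays limits the precision. Replicate arrays correlated at 0.988 to 0.992 across genes, and arrays of different groups at 0.907 to 0.974. Among the probe sets with exactly 1 symbol, none was named for mir142a or mir142b. Those with several symbols or none were not searched, and the knockout itself was not checked here.

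Markers of the cell types that the samples could hold are given here because the material is bulk RNA. The mean log2 level of 8 neutrophil markers was 12.73 to 12.76 in 142ab-/- and 12.76 to 12.78 in wild-type myelomonocytes, and 12.36 to 12.40 in 142ab-/- and 12.20 to 12.29 in wild-type WKMs. None of these 8 was called between genotypes. The highest value of each array was 13.68 to 13.76, not far above these means, and equal neutrophil content is not shown. Erythroid markers were measurable in all groups. Their mean level was higher in WKMs than in myelomonocytes, although the WKMs were sorted without erythrocytes, so RNA of erythroid genes was not absent there. In myelomonocytes 5 of 6 were called lower in 142ab-/- than in wild type, with a mean level of 9.82 to 9.89 against 10.56 to 10.61. In WKMs none of the 6 was called, at 11.44 to 11.69 in 142ab-/- and 11.31 to 11.40 in wild type. Of 10 kidney tubule and podocyte markers, 4 were called higher in 142ab-/- than in wild-type myelomonocytes (mean level 8.63 to 8.90 against 8.13 to 8.50), and 1 was called lower in 142ab-/- WKMs (7.64 to 8.01 against 7.99 to 8.22). Mean levels of 7 monocyte and macrophage markers were 8.75 to 9.06 in 142ab-/- and 9.29 to 9.38 in wild-type myelomonocytes, with 1 called higher and 2 lower. In WKMs they were 9.50 to 9.74 in 142ab-/- and 9.79 to 9.83 in wild type, with 2 called lower. Of 7 T and NK cell markers tested, 2 were called higher and 1 lower in 142ab-/- myelomonocytes, and 1 higher and 2 lower in 142ab-/- WKMs. Of 5 B cell markers the counts were 1 higher and 1 lower in myelomonocytes, and 0 higher and 1 lower in WKMs. Of 5 thrombocyte markers 1 was called higher in 142ab-/- in each population, and of 6 endothelial markers 1 was called lower in 142ab-/- myelomonocytes and 0 were called in WKMs. The part of these cell types in the results below was not tested, and in bulk samples fewer cells of a type and less RNA per cell cannot be told apart.

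**Figure D1:**
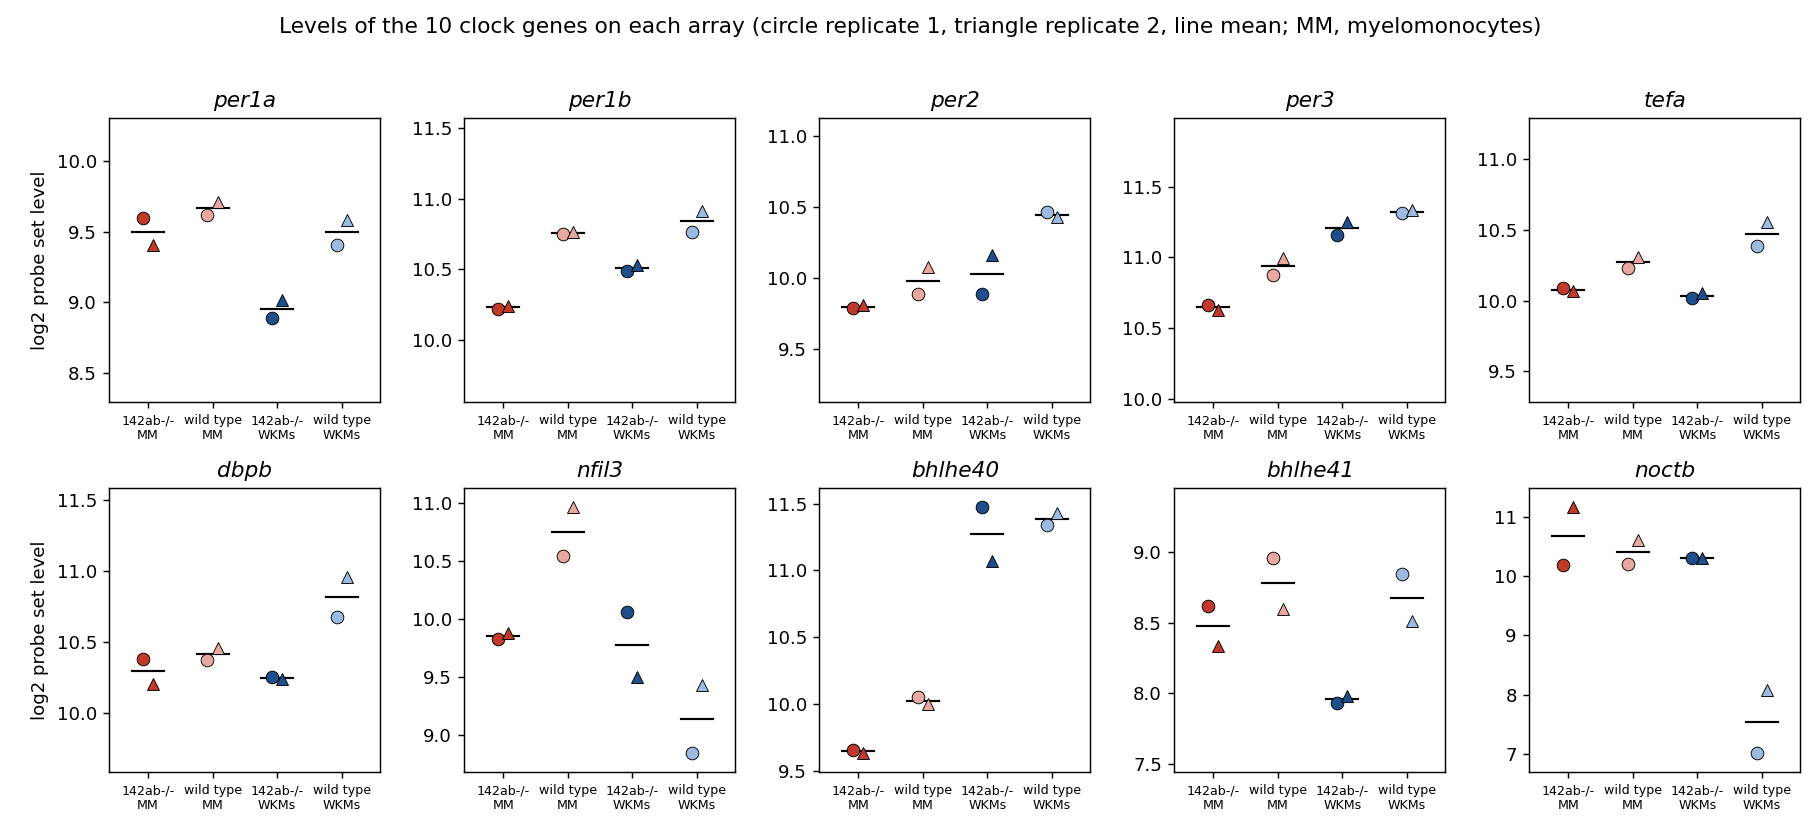
Log2 probe set level (y axis, 1 panel per gene, with a range of its own in each) on the 8 arrays, by group on the x axis, with circles for replicate 1, triangles for replicate 2 and a line at the mean. The noctb panel shows 3 groups between 10.20 and 11.17 and the wild-type WKMs at 7.01 and 8.08.

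The first comparison asked how the period genes differed between 142ab-/- and wild-type fish. Period proteins are the repressors of the core loop, and per2 is known in zebrafish as a light-induced gene. On the probe set kept for each gene, all 4 period genes had lower means in 142ab-/- than in wild type in both populations. For each of them the 142ab-/- and wild-type arrays did not overlap in either population on that probe set. This did not hold on the other per2 probe set, where the genotypes overlapped in both populations and the difference in myelomonocytes was 0.04. Such separation was common with so few arrays. Among all genes tested, 142ab-/- arrays were lower with no overlap for 26.6% in myelomonocytes, 28.5% in WKMs and 13.3% in both populations. The genotype difference passed the test for per1b in myelomonocytes and for per1a in WKMs.

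For per1b, the log2 level was 10.22 and 10.24 in 142ab-/- myelomonocytes, against 10.75 and 10.76 in wild-type myelomonocytes. Replicates lay close together, and both 142ab-/- arrays were below both wild-type arrays. The difference was -0.53 ± 0.09 (interval -0.74 to -0.31, adjusted p = 0.0112), which is 1.44-fold lower in 142ab-/-. In WKMs per1b was 10.49 and 10.53 in 142ab-/-, against 10.76 and 10.91 in wild type. There too the 142ab-/- arrays were both below the wild-type arrays, with a difference of -0.32 ± 0.09 that did not pass (adjusted p = 0.0722). The call in myelomonocytes was lost without wild-type myelomonocyte replicate 1 or 2 (adjusted p = 0.0608 to 0.0658).

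For per1a, the log2 level was 8.89 and 9.02 in 142ab-/- WKMs, against 9.41 and 9.58 in wild-type WKMs. The difference was -0.54 ± 0.11 (interval -0.81 to -0.28, adjusted p = 0.0259), 1.46-fold lower in 142ab-/-. Both 142ab-/- WKM arrays were also below all arrays of the other 3 groups. In myelomonocytes per1a was 9.60 and 9.40 in 142ab-/-, against 9.62 and 9.71 in wild type. These groups came close to each other without overlapping, and the difference of -0.17 ± 0.11 was not called (interval -0.43 to 0.10, adjusted p = 0.399). The call in WKMs was lost without any 1 of the 4 WKM arrays (adjusted p = 0.0696 to 0.141).

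The light-induced period gene per2 was 9.79 and 9.81 in 142ab-/- myelomonocytes, against 9.89 and 10.07 in wild-type myelomonocytes. In WKMs it was 9.89 and 10.16 in 142ab-/-, against 10.47 and 10.43 in wild type. The wild-type WKMs were above the 6 other arrays. Neither difference passed, at -0.18 ± 0.12 in myelomonocytes (adjusted p = 0.37) and -0.42 ± 0.12 in WKMs (adjusted p = 0.0682). A second per2 probe set did not show this order. It read 9.77 and 9.73 in 142ab-/- and 9.75 and 9.67 in wild-type myelomonocytes, and 9.72 and 9.92 in 142ab-/- and 9.84 and 9.91 in wild-type WKMs. Its genotype differences were 0.04 ± 0.10 in myelomonocytes (adjusted p = 0.863) and -0.05 ± 0.10 in WKMs (adjusted p = 0.808), so the direction in myelomonocytes depended on the probe set.

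For per3, levels were 10.67 and 10.63 in 142ab-/- myelomonocytes, against 10.88 and 11.00 in wild-type myelomonocytes. In WKMs they were 11.16 and 11.25 in 142ab-/-, against 11.31 and 11.33 in wild type. The 4 groups of per3 were fully separated, with 142ab-/- myelomonocytes lowest and wild-type WKMs highest. The genotype difference was -0.29 ± 0.09 in myelomonocytes (adjusted p = 0.0889) and -0.12 ± 0.09 in WKMs (adjusted p = 0.501), and neither was called.

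The genes of the D-box pathway, tefa and dbpb for activators and nfil3 for the repressor, were compared next. Both activator genes fell in 142ab-/- WKMs, while nfil3 had differences of opposite sign in the 2 populations.

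The activator gene tefa was 10.02 and 10.05 in 142ab-/- WKMs, against 10.38 and 10.56 in wild-type WKMs. The 142ab-/- WKM arrays were the lowest of the 8 arrays and the wild-type WKM arrays the highest. The difference was -0.44 ± 0.10 (interval -0.66 to -0.21, adjusted p = 0.0324), 1.35-fold lower in 142ab-/-. In myelomonocytes tefa was 10.09 and 10.06 in 142ab-/-, against 10.23 and 10.31 in wild type, and the difference of -0.19 ± 0.10 was not called (adjusted p = 0.252). The call in WKMs was lost without any 1 of the 4 WKM arrays or either wild-type myelomonocyte array (adjusted p = 0.0533 to 0.169).

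The related gene dbpb was 10.26 and 10.24 in 142ab-/- WKMs, against 10.68 and 10.96 in wild-type WKMs. The wild-type WKMs were above all arrays of the other 3 groups. The difference was -0.57 ± 0.12 (interval -0.85 to -0.29, adjusted p = 0.0263), 1.49-fold lower in 142ab-/-. In myelomonocytes the genotypes overlapped, at 10.38 and 10.21 in 142ab-/- and 10.37 and 10.45 in wild type, with a difference of -0.12 ± 0.12 (interval -0.40 to 0.16, adjusted p = 0.582). The call in WKMs was lost without either 142ab-/- WKM array or wild-type WKM replicate 2 (adjusted p = 0.105 to 0.138).

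The repressor gene nfil3, whose mouse counterpart is needed for the development of natural killer cells, was 9.83 and 9.88 in 142ab-/- myelomonocytes, against 10.54 and 10.97 in wild-type myelomonocytes. Both 142ab-/- arrays were below both wild-type arrays there. The difference was -0.90 ± 0.25 (interval -1.47 to -0.34), or 1.87-fold lower, and lay just outside the threshold (adjusted p = 0.0505). With 1 array left out the difference ran from -1.12 to -0.69, and without any 1 of the 4 WKM arrays it stayed at -0.90. Its side of the threshold depended on the array left out. In WKMs nfil3 was 10.06 and 9.50 in 142ab-/-, against 8.84 and 9.43 in wild type. Here both 142ab-/- arrays were above both wild-type arrays, though the nearest of them lay close together. The difference was 0.64 ± 0.25 (interval 0.08 to 1.21, adjusted p = 0.15) and was not called. With 1 array left out it ran from 0.35 to 0.94, lowest without wild-type WKM replicate 1.

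The E-box repressor genes bhlhe41 and bhlhe40 had lower means in 142ab-/- in both populations, and a difference between them was not tested. The level of bhlhe41 was 7.94 and 7.98 in 142ab-/- WKMs, against 8.84 and 8.51 in wild-type WKMs. The 142ab-/- WKMs were the lowest 2 of the 8 arrays. The difference was -0.72 ± 0.16 (interval -1.10 to -0.34, adjusted p = 0.0347), 1.64-fold lower in 142ab-/-. The call was lost without any 1 of the 4 WKM arrays, where the difference ran from -0.88 to -0.55. In myelomonocytes bhlhe41 was 8.62 and 8.34 in 142ab-/- and 8.96 and 8.60 in wild type, which overlap, and the difference was -0.30 ± 0.16 (adjusted p = 0.283).

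The level of bhlhe40 was 9.66 and 9.63 in 142ab-/- myelomonocytes, against 10.05 and 10.00 in wild-type myelomonocytes. These groups did not overlap, and the difference of -0.38 ± 0.13 was not called (interval -0.69 to -0.07, adjusted p = 0.11). In WKMs the arrays overlapped, at 11.48 and 11.07 in 142ab-/- and 11.34 and 11.43 in wild type, with a difference of -0.11 ± 0.13 (interval -0.42 to 0.20, adjusted p = 0.682).

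The nocturnin gene noctb had the largest genotype difference among the 10 genes. Its level was 10.30 and 10.30 in 142ab-/- WKMs, against 7.01 and 8.08 in wild-type WKMs. Both 142ab-/- arrays were far above both wild-type arrays, and the wild-type arrays differed more between themselves than any other replicate pair of these genes. The mean was 10.30 ± 0.0028 in 142ab-/- WKMs and 7.55 ± 0.75 in wild-type WKMs (SD, n = 2 each). The difference was 2.76 ± 0.38 (interval 1.87 to 3.64, adjusted p = 0.0058), 6.76-fold higher in 142ab-/-. In absolute size it was the 13th of 13774 genes in this comparison. It stayed called without each of the 8 arrays in turn, at 2.22 to 3.29, though at its weakest close to the threshold.

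In myelomonocytes noctb was 10.20 and 11.17 in 142ab-/- and 10.21 and 10.62 in wild type. The genotypes overlapped, the difference of 0.27 ± 0.38 was not called (interval -0.62 to 1.16, adjusted p = 0.709), and without 142ab-/- myelomonocyte replicate 2 it was -0.22. The wild-type WKMs stood below the 3 other groups, which did not differ beyond their spread.

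**Figure D2:**
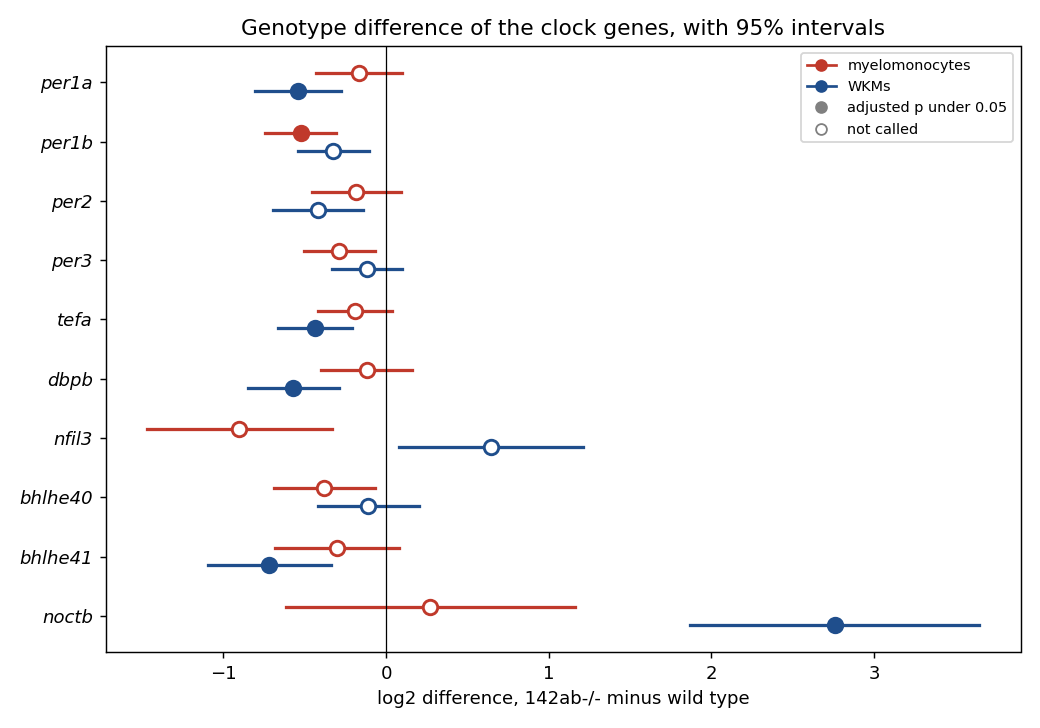
Log2 difference between 142ab-/- and wild type (x axis) for each gene (y axis), in myelomonocytes (red) and WKMs (blue), with 95% intervals from limma and filled points for an adjusted p under 0.05. Filled points are per1b in myelomonocytes, and per1a, tefa, dbpb, bhlhe41 and noctb in WKMs, of which noctb at 2.76 is above 0.

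Counted together, 1 of the 10 genes was called between genotypes in myelomonocytes (0 higher, 1 lower), where 12.4% of all genes tested were called, 6.85% higher and 5.51% lower. That count is near the share over all genes. In WKMs 5 of 10 were called (1 higher, 4 lower), where 9.28% of all genes were called, 4.73% higher and 4.55% lower. This count ran down to 1 or 2 without any 1 of the 4 WKM arrays, since only noctb kept its call in all of these fits. The median difference of the 10 genes was -0.24 in myelomonocytes, where the median of all genes was 0.01, and -0.37 in WKMs, where it was also 0.01. The WKM median was -0.22 with the second per2 probe set and -0.28 with the mean of both. Because the members were chosen with earlier results of these data known, these counts and those below are a description. Set beside the shares over all genes, they are not a test.

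Of the 10 genes, 9 lay below 0 in myelomonocytes and 8 in WKMs, against 48.7% and 49.1% of all genes. The 142ab-/- arrays lay below the wild-type arrays with no overlap for 7 genes in myelomonocytes (26.6% of all genes) and 7 in WKMs (28.5%). They lay above with no overlap for 0 genes in myelomonocytes (28.2%) and 2 in WKMs (28.1%), nfil3 and noctb. The 2 genotype comparisons share no arrays, but they are not shown to be independent. Replicate deviations correlated at 0.405 between the wild-type populations and 0.267 between the 142ab-/- populations. Whether same-numbered samples share fish or a batch was not tested. In both comparisons 8 genes lay below 0 (31.4% of all genes). Of these per1a, per1b, per2, per3 and tefa, 5 genes, were lower with no overlap in both (13.3%), and none was called lower in both (1.99%). For nfil3 the arrays did not overlap and the directions were opposite (6.17%). The per2 result, lower with no overlap in both populations, holds for the brighter of its 2 probe sets only.

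The difference between the genotype differences was tested next, as myelomonocytes minus WKMs. None of the 10 genes was called, where 0.276% of all genes were, and 4 of 10 had an unadjusted p under 0.05 in limma, as did 14% of all genes. These were per1a at 0.38 ± 0.16 (adjusted p = 0.352), dbpb at 0.45 ± 0.17 (adjusted p = 0.298), nfil3 at -1.55 ± 0.35 (adjusted p = 0.135) and noctb at -2.49 ± 0.54 (adjusted p = 0.13). In absolute size noctb was the 5th and nfil3 the 43rd of the 13774 genes. In this fit, which had no term for the replicate number, a call in 1 population and not in the other is not shown to be a difference between the populations.

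The populations were then compared within each genotype, with same-numbered samples taken as unpaired. Here calls were common among all genes, at 44.1% in 142ab-/- and 35.6% in wild type, and of the 10 genes 5 were called in 142ab-/- (2 higher and 3 lower in myelomonocytes, against 21.5% and 22.6%) and 6 were called in wild type (2 higher and 4 lower, against 15.5% and 20.1%). The median difference of the 10 genes was 0.04 in 142ab-/- (all genes 0.03) and -0.14 in wild type (all genes 0.00).

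The E-box repressor gene bhlhe40 had the largest fall in myelomonocytes. With the array levels given above it averaged 9.65 ± 0.02 in 142ab-/- myelomonocytes and 11.27 ± 0.28 in 142ab-/- WKMs, and 10.03 ± 0.04 in wild-type myelomonocytes and 11.38 ± 0.07 in wild-type WKMs (SD, n = 2 each). All 4 myelomonocyte arrays were below all 4 WKM arrays. The difference was -1.63 ± 0.13 in 142ab-/- (adjusted p = 0.000111), 3.09-fold lower, and -1.36 ± 0.13 in wild type (adjusted p = 0.000344), 2.56-fold lower. The period gene per3 was also lower in myelomonocytes in both genotypes, at -0.56 ± 0.09 in 142ab-/- (adjusted p = 0.00219) and -0.39 ± 0.09 in wild type (adjusted p = 0.0154). These 2 were the members called lower in both genotypes (15.8% of all genes), and none was called higher in both (11.6%). The per3 call in wild type was lost without wild-type myelomonocyte replicate 1 or either wild-type WKM array (adjusted p = 0.0631 to 0.0933).

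In wild-type fish the nocturnin gene noctb and the D-box repressor gene nfil3 were higher in myelomonocytes. For noctb the mean was 10.41 ± 0.29 in wild-type myelomonocytes and 7.55 ± 0.75 in wild-type WKMs, a difference of 2.87 ± 0.38 (interval 1.98 to 3.76, adjusted p = 0.00116), 7.30-fold higher. For nfil3 it was 10.76 ± 0.30 in wild-type myelomonocytes and 9.14 ± 0.42 in wild-type WKMs, a difference of 1.62 ± 0.25 (interval 1.05 to 2.19, adjusted p = 0.00195), 3.07-fold higher. In 142ab-/- fish neither was called, and the arrays of the populations overlapped for both. The means there were 10.69 ± 0.69 in myelomonocytes and 10.30 ± 0.0028 in WKMs for noctb (difference 0.38 ± 0.38, adjusted p = 0.45), and 9.86 ± 0.03 in myelomonocytes and 9.78 ± 0.40 in WKMs for nfil3 (difference 0.07 ± 0.25, adjusted p = 0.829). Whether the population difference depends on genotype is the same contrast as the one tested above, and in this fit it did not pass for either gene. The population comparisons share their arrays with the genotype comparisons, so they are not separate evidence on these 2 genes.

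Other members were called in 1 genotype. In 142ab-/- fish, per1a was higher in myelomonocytes than in WKMs by 0.55 ± 0.11 (adjusted p = 0.00597) and bhlhe41 by 0.52 ± 0.16 (adjusted p = 0.0349), and per1b was lower, at -0.28 ± 0.09 (adjusted p = 0.0415). The per1a call held without each array in turn. The bhlhe41 call was lost without 142ab-/- myelomonocyte replicate 1 or either 142ab-/- WKM array (adjusted p = 0.106 to 0.161). The per1b call was lost without any 1 of 6 arrays, which were all but the wild-type WKMs (adjusted p = 0.0664 to 0.161). In wild-type fish these 3 genes were not called, at 0.17 ± 0.11 for per1a, 0.10 ± 0.16 for bhlhe41 and -0.08 ± 0.09 for per1b.

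In wild-type fish per2 was lower in myelomonocytes than in WKMs, at -0.47 ± 0.12 (adjusted p = 0.0186), as was dbpb at -0.41 ± 0.12 (adjusted p = 0.033). The per2 call was lost on the second probe set (-0.16 ± 0.10, adjusted p = 0.253), and without wild-type myelomonocyte replicate 1 or either wild-type WKM array (adjusted p = 0.0668 to 0.107). The dbpb call was lost without either wild-type myelomonocyte array, either 142ab-/- WKM array or wild-type WKM replicate 2 (adjusted p = 0.0525 to 0.184). In 142ab-/- fish the differences were -0.23 ± 0.12 for per2 and 0.05 ± 0.12 for dbpb, neither called. The activator gene tefa was called in neither genotype, at 0.04 ± 0.10 in 142ab-/- and -0.20 ± 0.10 in wild type.

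**Figure D3:**
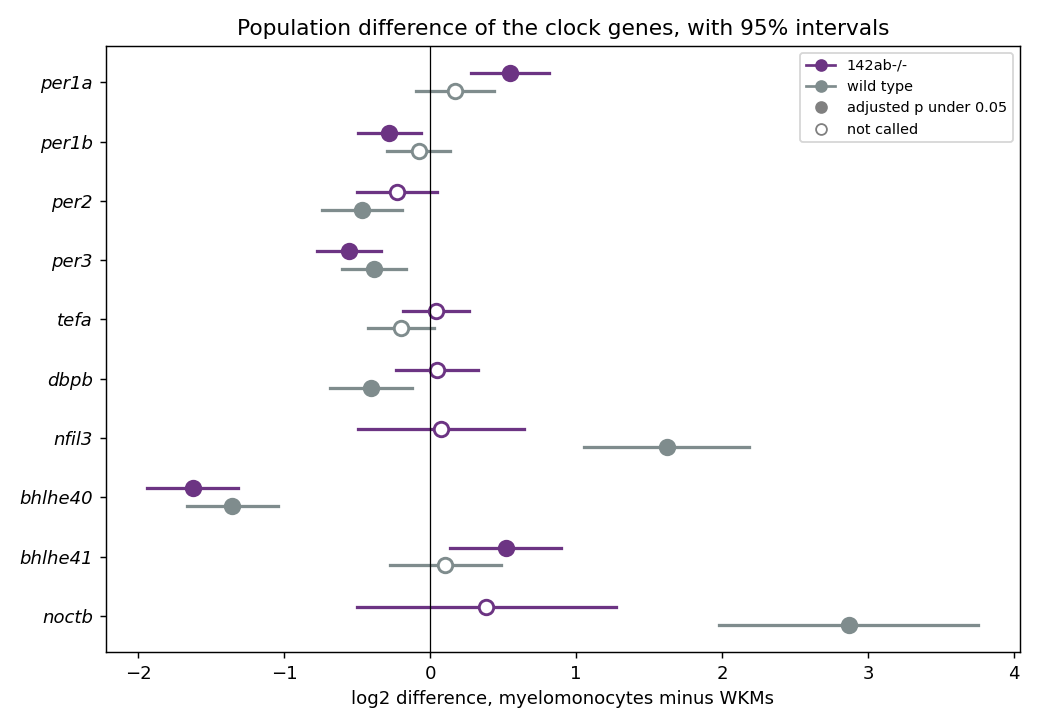
Log2 difference between myelomonocytes and WKMs (x axis) for each gene (y axis), in 142ab-/- (purple) and wild type (grey), with 95% intervals from limma and filled points for an adjusted p under 0.05. In both genotypes bhlhe40 lies far below 0, while nfil3 and noctb lie far above 0 in wild type. In 142ab-/- nfil3 lies at 0.07 and noctb at 0.38, with intervals that include 0.

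Beside these populations, the marker levels also differed. Neutrophil markers were called higher in myelomonocytes for 6 of 8 genes in each genotype. All 6 erythroid markers were called lower in each genotype. B cell markers were called lower for 4 of 5 in 142ab-/- (1 higher) and 5 of 5 in wild type, and T and NK cell markers for 5 of 7 in 142ab-/- (1 higher) and 6 of 7 in wild type (1 higher). The mean B cell marker level was 6.73 to 6.84 in 142ab-/- and 6.51 to 6.65 in wild-type myelomonocytes, and 8.87 to 9.25 in 142ab-/- and 9.31 to 9.37 in wild-type WKMs. Of the 5 B cell markers, 3 were above the dim level in 142ab-/- myelomonocytes and 4 in wild-type myelomonocytes. For T and NK cell markers the mean was over all 8 measured, also the one set aside as dim. It was 7.21 to 7.34 in 142ab-/- and 7.06 to 7.14 in wild-type myelomonocytes, and 8.68 to 8.89 in 142ab-/- and 8.87 to 9.07 in wild-type WKMs. Of these 8, 5 were above the dim level in 142ab-/- myelomonocytes. Monocyte and macrophage markers were called lower in myelomonocytes for 5 of 7 in 142ab-/- (2 higher) and 3 of 7 in wild type (1 higher). Kidney tubule and podocyte markers were called higher for 7 of 10 in 142ab-/- (1 lower) and 0 of 10 in wild type (1 lower), endothelial markers higher for 3 of 6 in 142ab-/- and 5 of 6 in wild type, and thrombocyte markers higher for 1 and lower for 2 of 5 in each genotype. Their part in the population differences of the clock genes was not tested.

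The other genes of the clock were counted as a wider set. Of 66 symbols listed, 46 were measured and all 46 were tested. Between genotypes 2 were called higher and 2 lower in myelomonocytes, and 1 higher and 1 lower in WKMs. Against the 12.4% and 9.28% of all genes called in these comparisons, 4 and 2 of 46 are no larger a share. Their median difference was -0.10 in myelomonocytes and -0.07 in WKMs, where the median of all genes was 0.01 in each. Below 0 were 32 and 27 of 46, against 48.7% and 49.1% of all genes.

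Among nuclear receptors, roraa and rorab encode ROR receptors, which activate bmal1 transcription in mammals. Levels of roraa averaged 7.87 in 142ab-/- and 6.82 in wild-type myelomonocytes, a difference of 1.04 ± 0.15 (adjusted p = 0.00495). In WKMs roraa averaged 8.54 in 142ab-/- and 7.92 in wild type, a difference of 0.62 ± 0.15 (adjusted p = 0.0424). Levels of rorab averaged 7.94 in 142ab-/- and 7.08 in wild-type myelomonocytes, a difference of 0.85 ± 0.10 (adjusted p = 0.00263), and in WKMs the difference of 0.26 ± 0.10 was not called (adjusted p = 0.166). The myelomonocyte calls of both genes held without each array in turn. The roraa call in WKMs was lost without any 1 of 6 arrays, which were all but the wild-type myelomonocytes (adjusted p = 0.0533 to 0.178). The other 7 nuclear receptor genes were not called. The activator gene bmal1a was not called in either population, at 0.56 ± 0.19 in myelomonocytes (adjusted p = 0.0942) and 0.59 ± 0.19 in WKMs (adjusted p = 0.0953), and neither were the other 5 genes of the CLOCK and BMAL group. With 1 array left out bmal1a ran from 0.25 to 0.87 in myelomonocytes and was called there without wild-type myelomonocyte replicate 1 (adjusted p = 0.0176), and it was called in WKMs without either wild-type myelomonocyte array (adjusted p = 0.0254).

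Among 12 kinases, ubiquitin ligases and cofactors of the clock, fbxl3b, related to the F-box protein that marks cryptochromes for degradation, was lower in 142ab-/- myelomonocytes (8.01 in 142ab-/-, 8.72 in wild type, -0.70 ± 0.18, adjusted p = 0.0422). The gene ciarta, related to a mammalian repressor of CLOCK and BMAL, was lower in 142ab-/- WKMs (10.85 in 142ab-/-, 11.28 in wild type, -0.43 ± 0.11, adjusted p = 0.0472). The fbxl3b call was lost without any 1 of 5 arrays, which were wild-type myelomonocyte replicate 1 and the 4 arrays of 142ab-/- cells (adjusted p = 0.0591 to 0.202). The ciarta call was lost without any 1 of the 8 arrays (adjusted p = 0.0554 to 0.225). None of 8 cryptochromes and none of 8 further PAR bZIP and NFIL3 family genes was called between genotypes. The medians of the 8 PAR bZIP and NFIL3 genes were -0.16 in myelomonocytes and -0.25 in WKMs, and those of the cryptochromes -0.13 and -0.16.

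The second nocturnin gene, nocta, averaged 9.72 in 142ab-/- and 10.38 in wild-type myelomonocytes, a difference of -0.66 ± 0.17 (adjusted p = 0.0422). In WKMs it averaged 9.97 in 142ab-/- and 9.47 in wild type, a difference of 0.50 ± 0.17 that was not called (adjusted p = 0.117). The difference between these was -1.16 ± 0.24 and did not pass (adjusted p = 0.117). The myelomonocyte call was lost without any 1 of 7 arrays, which were all but 142ab-/- myelomonocyte replicate 2 (adjusted p = 0.0521 to 0.15). Of the 4 genotype differences of the 2 nocturnin genes, those called were noctb in WKMs and nocta in myelomonocytes.

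**Figure D4:**
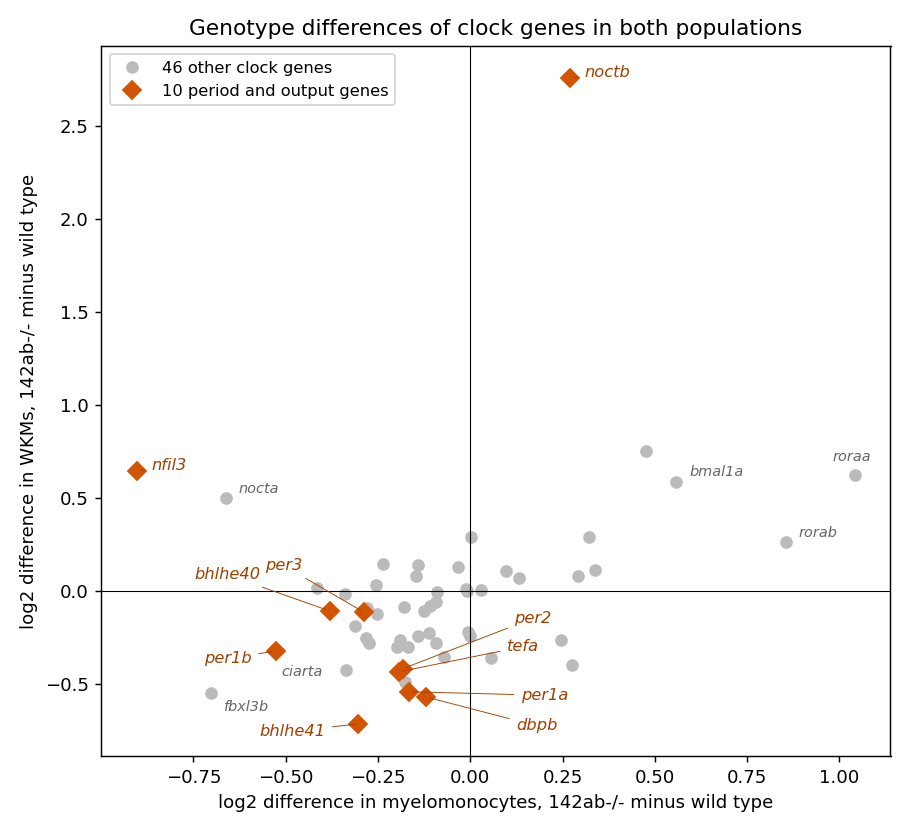
Log2 difference between 142ab-/- and wild type in myelomonocytes (x axis) and in WKMs (y axis), for the 10 genes (orange diamonds) and 46 other clock genes (grey circles). Of the 10 genes 8 lie below 0 on both axes, nfil3 lies at -0.90 and 0.64, and noctb at 0.27 and 2.76.

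A group of light-inducible DNA repair genes, which are known to respond to light through D-boxes in fish, and a group of glucocorticoid response genes were counted beside the clock genes. The repair group shares cry5 with the cryptochromes. Of 5 repair genes tested, xpc was called lower in 142ab-/- WKMs (7.21 in 142ab-/-, 7.91 in wild type, -0.70 ± 0.11, adjusted p = 0.00818), and none was called in myelomonocytes. That call was lost without either wild-type WKM array or 142ab-/- WKM replicate 2 (adjusted p = 0.0511 to 0.0589). The medians of the 5 were -0.07 in myelomonocytes and -0.36 in WKMs. None of 7 glucocorticoid response genes was called between genotypes, with medians of -0.07 and -0.18.

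Between populations, 7 of the 46 other clock genes were called higher and 14 lower in 142ab-/- myelomonocytes, with 5 higher and 14 lower in wild-type myelomonocytes. These counts, 21 and 19 of 46, are near the 44.1% and 35.6% of all genes called in the same comparisons, and the genes are named below as a description. Among nuclear receptors nr1d1, which encodes the repressor REV-ERB alpha, was lower (-1.57 in 142ab-/-, -1.41 in wild type), as was nr1d4b (-0.94 and -0.85). Also lower in both were nr1d2b (-0.44 and -0.32), roraa (-0.67 and -1.09) and rorab (-0.35 and -0.94), and nr1d4a was higher in both (0.92 and 0.70). Among cryptochromes cry3a was lower (-1.70 in 142ab-/-, -1.42 in wild type), as was cry3b (-0.75 and -0.52).

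In the PAR bZIP and NFIL3 family dbpa (-0.64 in 142ab-/-, -0.75 in wild type) and hlfa (-0.78 and -0.65) were lower in both genotypes. In the NFIL3 group nfil3-5 was higher in both (0.75 in 142ab-/-, 0.78 in wild type), as was nfil3-2 (0.46 and 0.47). The gene nfil3-4 was lower in both (-1.56 and -1.98), with myelomonocyte means of 5.42 in 142ab-/- and 5.36 in wild type that lie under the dim level of 5.52. The activator gene bmal1b was lower in both (-1.03 in 142ab-/-, -0.74 in wild type), as was timeless (-0.47 and -0.29).

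Called in 142ab-/- alone were clocka (0.52), bmal2 (0.58), nfil3-6 (0.47), cry5 (0.37), clockb (-0.37) and ciartb (-0.45). Called in wild type alone were nocta (0.91), rorcb (0.56), cry1b (-0.58) and csnk1e (-0.42), and for these 10 genes a difference between the genotypes was not shown. Of 21 calls in 142ab-/-, 5 were lost without at least 1 array, those of nfil3-2, nfil3-6, clockb, cry5 and rorab (adjusted p = 0.0515 to 0.256 where lost). Of 19 in wild type 9 were, those of nfil3-2, bmal1b, cry1b, cry3b, nr1d2b, nr1d4b, rorcb, csnk1e and timeless (adjusted p = 0.055 to 0.192 where lost). Of the repair genes 1 was called higher and 4 lower in 142ab-/- myelomonocytes, and 0 higher and 3 lower in wild-type myelomonocytes, and of the glucocorticoid response genes sgk1 was called higher in both (0.45 and 0.54).

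The members were last set against each other by the pattern of their 4 group means, each centred on its own mean. The measure was the root mean square distance between centred means over the 4 groups, and it is a description with no test. The means were not scaled, so genes with small spans tend to lie close together and genes with large spans far apart. The closest members were tefa and dbpb at 0.07, per1a and bhlhe41 at 0.08, and per2 and dbpb at 0.10. The farthest apart were bhlhe40 and noctb at 1.87. The group means spanned 3.14 for noctb, 1.74 for bhlhe40 and 1.62 for nfil3, and 0.44 to 0.82 for the other 7 genes.

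For the 3 genes whose means spanned at least 1, the most alike of 12491 named genes were found by the same distance. For bhlhe40 they were map3k8 at 0.040, chst2a at 0.043 and smpd3 at 0.048. For nfil3 they were zc3h12ab and pcdh11, both at 0.139, and pnp5a at 0.160. For noctb no gene came as near, and the nearest were arg2 at 0.495, cyp7a1 at 0.565 and nlgn1 at 0.627. The arginase gene arg2 averaged 10.14 in 142ab-/- and 10.13 in wild-type myelomonocytes, and 9.95 in 142ab-/- and 8.27 in wild-type WKMs. Its genotype difference was 1.67 in WKMs, where that of noctb was 2.76. The gene cyp7a1, which encodes the rate-limiting enzyme of bile acid synthesis, had genotype differences of 1.47 in myelomonocytes and 2.02 in WKMs.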

How the data were processed

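Expression was measured on a 1-colour Affymetrix array in 8 samples. The deposited table holds log2 values per probe set, as their range shows, for 75212 probe sets. The authors' steps before deposit and any scan batches, not given in the sources used here, could not be weighed, and the values were used as deposited. Probe sets were named through GEO's platform annotation, where 20806 had 1 symbol, 855 several and 53551 none, and 20323 of the first matched a current gene by Entrez ID. The probe set with the highest mean was kept per symbol. Genes with a mean under 5.52, the 50th percentile of all probe sets, were set aside as dim (5486 genes), which left 13774.

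The tests used limma 3.58.1 (R 4.3.3) on all 8 arrays, with a mean per group, 4 residual and 4.00 prior degrees of freedom. The fit was tried on simulated data with independent arrays and the same spread of a gene in all groups. Such data cannot show how it behaves where spread differs between groups or same-numbered replicates correlate. Groups of 2 against 2 could not pass an exact permutation test, whose smallest p is 0.333, so spread was pooled over groups. The members, gene lists, markers and naming rule were chosen with earlier results of these data known. All members are named, called genes of the other clock lists are named, and for members spanning at least 1 the 3 most alike genes. The symbol cd3eap was left out of the T and NK cell markers, since it names an RNA polymerase subunit. Alternatives were quantile normalization, median centring, no dim filter, other probe set rules, fewer arrays, array weights, a trended robust prior, a replicate block, and each array left out.  No sequences are printed.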

Additional observations from a re-analysis of the deposited data

Results flagged for a closer look

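The gene nfil3 had genotype differences of opposite sign in the 2 populations, with no overlap of arrays in either. Both 142ab-/- arrays lay below both wild-type arrays in myelomonocytes (-0.90) and above both in WKMs (0.64). With 1 array left out these ran from -1.12 to -0.69 in myelomonocytes and from 0.35 to 0.94 in WKMs, the lowest being without wild-type WKM replicate 1. The difference between these differences was -1.55 on the log2 scale and did not pass the test in limma (adjusted p = 0.135). Over all alternatives it ran from -1.84 to -1.25, with adjusted p from 0.0959 to 0.338. Among all genes tested, 6.17% had groups that did not overlap and differed in opposite directions.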

How the results depend on the processing

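Over 50 differences (10 genes in 5 comparisons) and all alternatives, 774 of 840 values kept their direction and their side of the threshold, 47 were no longer called, 11 became called and 8 changed sign. Many of these values could not change direction. A changed prior, or an array left out of a group not compared, leaves the difference itself the same. In myelomonocytes 1 gene was called between genotypes, against 2 with the mean of probe sets, 2 with only the 4 arrays compared, 3 with a trended robust prior and 0 to 2 with each array left out. In WKMs 5 were called, against 1 to 5 with each array left out: 1 without 142ab-/- WKM replicate 1 or 2 or wild-type WKM replicate 2, and 2 without wild-type WKM replicate 1. The 5 calls between populations in 142ab-/- became 3 with array weights and 3 to 5 with each array left out, and the 6 in wild type became 3 to 6. In the difference between differences none was called with any array left out, and with a replicate block 1 was called (noctb, -2.49 ± 0.35, adjusted p = 0.0405). The replicate block changed no other call of these genes. The labels do not say that replicate numbers pair samples, and the correlation of replicate deviations was 0.267 between the 142ab-/- populations, 0.405 between the wild-type populations and -0.000189 to 0.116 for the other 4 pairs of groups. Not every pair was over 0.1, so the fit without the block was kept. The block joined same-numbered samples of all 4 groups. Pairing of the populations within a genotype, where the correlations were highest, was not fitted. Whether same-numbered samples share a batch or fish was not tested. Some values changed sign. On its second probe set per2 in myelomonocytes was 0.037. Without 142ab-/- myelomonocyte replicate 2, noctb was -0.22 in myelomonocytes (range with each array left out -0.22 to 0.76) and -0.10 between populations in 142ab-/- (-0.10 to 0.87). Without 142ab-/- WKM replicate 2, bhlhe40 was 0.092 in WKMs (-0.31 to 0.092) and nfil3 was -0.21 between populations in 142ab-/- (-0.21 to 0.36). Without 142ab-/- myelomonocyte replicate 1, dbpb was -0.040 between populations in 142ab-/- (-0.040 to 0.13). Without wild-type myelomonocyte replicate 1, bhlhe41 was -0.077 between populations in wild type (-0.077 to 0.28), and without wild-type WKM replicate 2 it was -0.06. The cause was not tested. With the trended prior per3 (adjusted p = 0.023) and nfil3 (adjusted p = 0.0405) were also called in myelomonocytes, and per1b (adjusted p = 0.0218) and per2 (adjusted p = 0.0279) in WKMs. The tefa call in WKMs was lost with median centring (adjusted p = 0.0518) and with only the 4 arrays compared (adjusted p = 0.0601), which left 4 members called in each. Over all genes, 38 were called in the difference between differences, against 112 with the trended prior, 77 with the block, 24 with quantile normalization and 1 to 25 with each array left out. In myelomonocytes 1703 were called, against 1108 with only the 4 arrays and 719 to 1483 with each array left out, and in WKMs 1278 against 361 to 1392. Other settings raised these counts, in myelomonocytes to 2070 with the trended prior and 2073 with the block. In WKMs 1675 were called with the trended prior, 1603 with array weights and 1572 with the block. Quantile normalization turned the split between wild-type populations to 3039 higher and 2182 lower, where 2134 higher and 2766 lower were called.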
